A study of Mus musculus with 12 samples.

Results

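The regions described here are the hypomethylated regions of integrin, laminin, matrix metalloprotease and Adamts genes in bone marrow progenitors of Dnmt1 mutant mice. They are all regions in the authors' deposited list of hypomethylated regions whose gene symbol begins with Itga or Itgb, with Lama, Lamb or Lamc and a digit, with Mmp and a digit, or with Adamts, and which lie within 5000 bases of that gene. This gave 216 regions at 53 genes, out of 35439 listed regions and 107115 candidate regions for which levels were deposited. The members were thus selected on the measured difference in methylation between these same samples, so their levels are given as a description and support no test. Lineage-negative cells are what remains of bone marrow once cells with surface markers of mature blood cells have been removed. The Dnmt1 mutant and the wild type were both BALB/c mice, with no age given. The labels write the mutant genotype as dnmt1-/-, whereas the series describes a missense mutation made after hypomorphic fish alleles. Dnmt1 is the enzyme that copies methylation onto the new DNA strand after replication. Each genotype had 6 samples, made from 3 replicate numbers with 2 kits for library preparation, 1 using bisulfite and 1 an enzyme for conversion, and the deposited values hold 1 column per genotype and number (n = 3 against 3). Nothing states that the numbers stand for separate animals, and the spread between columns may be technical. The values are levels without read counts, so the depth behind each is unknown. Levels of selected regions cannot check the labelled cell type, and a mixed cell population can change a level through its makeup as well as within cells.

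Integrins are receptors made of an alpha and a beta chain, which hold blood cells to stroma, vessel wall and matrix and signal from those contacts. Laminins, built of an alpha, a beta and a gamma chain, form the network of basement membranes to which several integrins bind. Mmp enzymes and the secreted Adamts enzymes cut matrix proteins, and Adamtsl proteins resemble Adamts enzymes but lack the protease part. In the marrow, integrins retain stem and progenitor cells in their niche, and Mmp9 is known for its release by neutrophils.

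The sequences just before 5 gene starts are shown because levels at them ranged from almost none to high, and they are referred to again beside those levels. They are the 250 bases before a RefSeq start on GRCm38.p6, the assembly that mm10 names, from 5′ to 3′ on the strand of the gene, with each CG, the site of methylation, in capitals. They come from the C57BL/6J reference and not from the BALB/c mice. Itgb7 (chr15:102231936-102232185, minus strand), Lamb3 (chr1:193301744-193301993, plus strand) and Itga3 (chr11:95069199-95069448, minus strand) lie inside listed regions, and all 3 of these starts are within the RefSeq span of the gene. Mmp11 (chr10:75932503-75932752, minus strand) and Itga11 (chr9:62677605-62677854, plus strand) lie at candidate regions that were not listed.
Itgb7: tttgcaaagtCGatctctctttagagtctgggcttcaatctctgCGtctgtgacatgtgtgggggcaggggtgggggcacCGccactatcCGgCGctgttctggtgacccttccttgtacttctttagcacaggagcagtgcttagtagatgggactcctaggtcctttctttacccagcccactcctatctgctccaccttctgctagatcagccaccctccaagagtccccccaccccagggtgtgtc
Lamb3: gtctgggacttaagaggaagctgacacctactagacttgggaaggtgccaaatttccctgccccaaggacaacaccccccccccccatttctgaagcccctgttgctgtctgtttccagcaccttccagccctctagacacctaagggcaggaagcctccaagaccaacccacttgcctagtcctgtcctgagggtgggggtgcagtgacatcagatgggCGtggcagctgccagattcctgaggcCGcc
Itga3: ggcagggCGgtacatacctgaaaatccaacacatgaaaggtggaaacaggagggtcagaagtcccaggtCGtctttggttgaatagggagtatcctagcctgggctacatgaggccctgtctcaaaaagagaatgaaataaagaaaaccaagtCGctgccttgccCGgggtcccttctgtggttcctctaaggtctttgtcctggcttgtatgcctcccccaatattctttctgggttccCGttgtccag
Mmp11: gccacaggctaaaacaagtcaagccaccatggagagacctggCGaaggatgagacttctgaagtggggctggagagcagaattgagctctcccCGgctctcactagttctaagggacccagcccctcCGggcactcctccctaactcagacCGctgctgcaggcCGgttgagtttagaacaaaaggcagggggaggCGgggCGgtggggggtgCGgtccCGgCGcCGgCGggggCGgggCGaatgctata
Itga11: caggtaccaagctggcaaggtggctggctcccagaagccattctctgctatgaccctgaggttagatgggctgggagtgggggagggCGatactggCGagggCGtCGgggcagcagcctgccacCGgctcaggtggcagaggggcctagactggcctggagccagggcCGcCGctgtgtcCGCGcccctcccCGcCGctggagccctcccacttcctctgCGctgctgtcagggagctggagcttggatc
The bases hold 5 CG at Itgb7, 2 at Lamb3, 5 at Itga3, 14 at Mmp11 and 12 at Itga11. Of 32851 such windows in the RefSeq table, 29.0% hold at most as many as Lamb3, 49.6% as Itgb7 and Itga3, 68.5% as Itga11 and 72.7% as Mmp11, and 92.1% hold at least 1. CG reads the same on both strands, and its count is a description of the letters only.

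Over the 216 regions the level was 50.2% ± 2.37 in the Dnmt1 mutant and 78.1% ± 0.160 in wild-type cells (SD, n = 3 each). The mutant replicates averaged 47.9%, 49.9% and 52.6%, against 77.9%, 78.2% and 78.1% in the wild type. The mutant replicates were thus all below the wild-type replicates and lay farther apart from each other. The difference had a median of -25.3 points (quartiles -30.7 and -23.1) and ran from -67.2 to -20.1 points. At each of the 216 regions the highest mutant replicate was lower than the lowest wild-type one, as at 35422 of the 35439 listed regions (100% when rounded, with 17 exceptions) and at 94.3% of all candidate regions. These counts follow from how the list was made. The other 26738 listed regions within the same distance of a gene averaged 48.3% ± 2.36 in the mutant against 76.7% ± 0.284 in wild-type cells (SD, n = 3 each), with a median difference of -26.1 points, so the size of the loss at these genes lay close to that at listed regions in general.

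**Figure D1:**
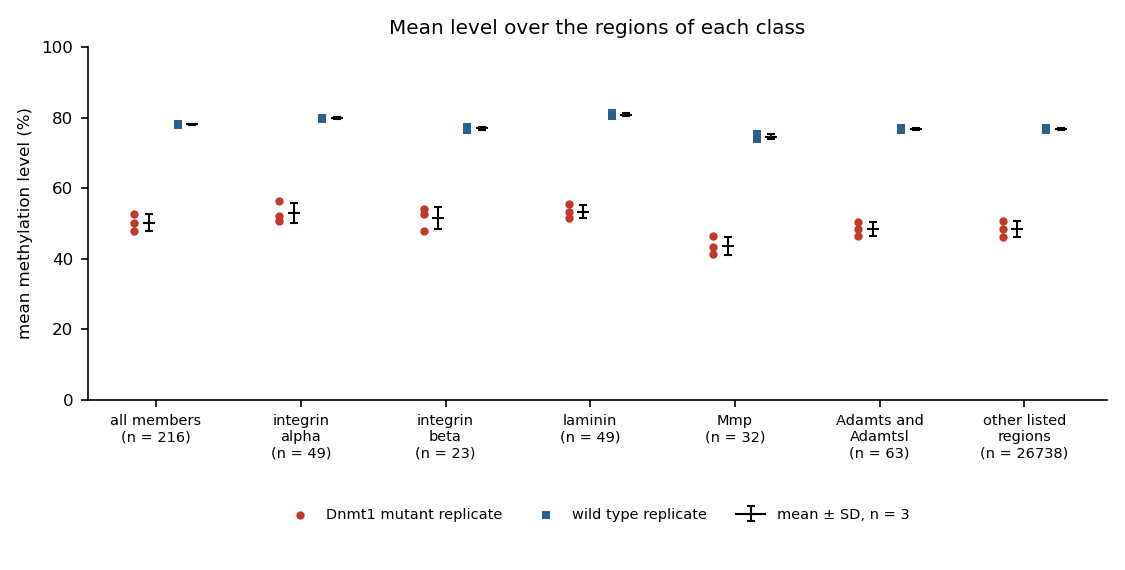
Mean methylation level in percent (vertical axis, from 0 to 100) over the regions of each class, with a point for each replicate of the Dnmt1 mutant (circles, left) and the wild type (squares, right) and bars for the mean ± SD (n = 3). In every class the 3 mutant replicates lie below the 3 wild-type replicates, and the Mmp regions have the lowest mean in both genotypes, at 43.6% in the mutant against 74.6% in wild-type cells.

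The integrin alpha chains, which give the receptor most of its choice of ligand, held 49 of the regions at 10 genes. Their mean was 53.0% ± 2.91 in the mutant against 79.9% ± 0.183 in wild-type cells (SD, n = 3 each). Itga9, whose product binds tenascin C and osteopontin with the beta chain of Itgb1, held 17 regions, and Itga11, a collagen receptor chain of mesenchymal cells, held 15. A region of 14 CpGs in Itga9 (chr9:118689276-118689693), some 82.8 kb past the gene start, had 16.5%, 19.2% and 16.2% in the mutant replicates, against 92.5%, 81.2% and 79.5% in the wild type. All mutant values there were under 20% and the difference was -67.1 points, while the other 16 regions of the gene differed by -36.8 to -20.1 points. The largest loss in Itga11 (chr9:62717946-62718925) had 26.9%, 21.8% and 22.0% in the mutant, against 60.8%, 74.8% and 57.9% in the wild type. Only these 2 of the 49 alpha chain regions lost 40 points or more.

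Among alpha chains of blood cells, Itga2b, the platelet fibrinogen receptor chain that early progenitors also carry, held 5 regions. Its largest loss (chr11:102457413-102458212) had 44.8%, 42.3% and 58.7% in the mutant, against 81.8%, 82.9% and 87.3% in the wild type, so that mutant replicate 3 stood above the other 2 and still below every wild-type value. Itgax, the CD11c chain of dendritic cells, held 1 region, which began 185 bases past the gene start (chr7:128129711-128130218). It had 45.8%, 38.2% and 41.8% in the mutant, against 80.4%, 83.6% and 77.6% in the wild type. The leukocyte chains Itgad, Itgae and Itgal also held 1 region each, inside the gene, with differences of -20.8, -21.9 and -20.1 points. Of the laminin-binding chains, Itga7 held 4 regions with a mean of 54.1% ± 1.79 in the mutant against 79.9% ± 0.180 in wild-type cells, Itga3 held 3 with 64.4% ± 3.23 in the mutant against 88.8% ± 1.30 in wild-type cells (SD, n = 3 each), and Itga6 held 1.

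The integrin beta chains held 23 regions at 7 genes, with a mean of 51.5% ± 3.22 in the mutant against 76.9% ± 0.422 in wild-type cells (SD, n = 3 each). None of the 23 lost 40 points or more, and the largest difference was -33.7 points. It lay in Itgb4, the epithelial chain that binds laminin with the product of Itga6 and that held 8 regions (chr11:116000031-116000645), with 38.7%, 42.1% and 44.0% in the mutant against 80.1%, 71.4% and 74.4% in the wild type. Itgb3, the partner of Itga2b on platelets, and Itgb5, a vitronectin receptor chain, held 5 regions each. The largest losses of these genes were the member regions with the widest spread among mutant replicates. At Itgb3 (chr11:104643826-104644100) mutant levels were 34.2%, 55.6% and 59.6%, against 76.5%, 84.3% and 83.0% in the wild type. At Itgb5 (chr16:33872042-33872503) they were 44.0%, 69.6% and 55.4%, against 85.9%, 89.1% and 90.6% in the wild type. The lowest mutant value was replicate 1 at both, and at Itgb5 the range within the mutant was 25.6 points beside a difference between the genotypes of -32.2 points. Itgb2, the beta chain of leukocyte integrins, held 1 region (-23.7 points), as did the related Itgb2l (-22.3 points) and Itgbl1 (-25.8 points), which is named for likeness and is not a receptor chain.

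Itgb7, which forms the gut-homing integrin of lymphocytes with the product of Itga4, held 2 neighbouring regions at its 5′ end. The longer one (chr15:102231003-102233242, 25 CpGs) contains the sequence printed above and reaches to 163 bases from the start of the RefSeq span. It had 18.2%, 19.9% and 22.6% in the mutant, against 46.7%, 47.2% and 42.8% in the wild type. Replicates were close within each genotype, and the wild type itself was well below its mean over all members. The region just downstream (chr15:102230249-102230850) had 38.3%, 42.8% and 49.2% in the mutant, against 74.4%, 70.8% and 76.8% in the wild type.

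The laminin chains held 49 regions at 10 genes, with a mean of 53.3% ± 1.92 in the mutant against 80.8% ± 0.409 in wild-type cells (SD, n = 3 each). Lamc3, a gamma chain, held 17 regions and Lama5, an alpha chain found in many basement membranes, held 13. The Lamc3 region with the largest loss (chr2:31887614-31888788), which also counts toward Gm13441, began 333 bases past the gene start. It had 24.9%, 27.7% and 23.3% in the mutant, against 66.2%, 65.6% and 68.7% in the wild type. It was the only laminin region that lost 40 points or more. In Lama5 the largest loss (chr2:180186694-180187191) had 51.0%, 47.8% and 50.1% in the mutant, against 86.0%, 81.8% and 86.0% in the wild type. Lama5 regions were highly methylated throughout, from 82.7% to 92.0% in the wild type, and kept at least 49.6% in the mutant.

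Lamb2, the beta chain known from the neuromuscular synapse and the kidney filter, held 2 unlike regions. One near the 3′ end (chr9:108489455-108490245, 23 CpGs) had 8.82%, 12.1% and 14.1% in the mutant, against 52.5%, 53.6% and 44.2% in the wild type, and the other differed by -21.6 points. Lamb3 and Lama3 encode chains of the laminin of skin, and held 6 regions and 1 region. The largest loss in Lamb3 (chr1:193329721-193330242) had 50.4%, 40.5% and 42.5% in the mutant, against 84.5%, 79.8% and 84.1% in the wild type. The only region of Lama3 differed by -21.4 points. Lamb1 held 5 regions with a mean of 56.0% ± 2.57 in the mutant against 81.7% ± 1.08 in wild-type cells (SD, n = 3 each), Lamc1 held 2, and Lama1 and Lama4 held 1 each with differences of -21.0 and -25.2 points.

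The Mmp genes held 32 regions at 10 genes, with a mean of 43.6% ± 2.64 in the mutant against 74.6% ± 0.687 in wild-type cells (SD, n = 3 each). Of these, 7 (21.9%) lost 40 points or more, at Mmp9, Mmp11, Mmp24 and Mmp25, where 18 of all 216 members (8.33%) and 8.55% of all listed regions did. The largest loss of any member lay in Mmp11, an enzyme of remodelling stroma (chr10:75926217-75926803, 16 CpGs). It had 19.8%, 7.87% and 9.6% in the mutant, against 76.1%, 85.2% and 77.5% in the wild type, a difference of -67.2 points. Mmp25, a membrane-anchored enzyme of leukocytes, held 1 region (chr17:23630791-23631479) with 24.6%, 25.6% and 31.2% in the mutant, against 74.8%, 71.1% and 72.8% in the wild type. Mmp24, a membrane-type enzyme of the nervous system, held 9 regions, of which 3 lost 40 points or more. Its largest loss (chr2:155788175-155788743) had 32.0%, 30.1% and 26.9% in the mutant, against 75%, 75.8% and 70.9% in the wild type.

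Mmp9, the gelatinase of neutrophils, held 8 regions that included the members with the lowest levels. A region of 28 CpGs inside the gene (chr2:164949861-164950418) had 3.22%, 2.48% and 2.07% in the mutant, against 32.7%, 21.0% and 33.3% in the wild type. A second one (chr2:164948560-164949073) had 4.77%, 3.69% and 5.77% in the mutant, against 34.3%, 33.2% and 28.5% in the wild type. Little methylation was left in the mutant at either, although the differences, -26.4 and -27.3 points, were near the median of the members. The largest loss of the gene lay farther along (chr2:164952475-164952729), with 28.2%, 31.0% and 21.3% in the mutant against 83.7%, 73.7% and 64.0% in the wild type. Mmp17, a membrane-anchored enzyme, held 7 regions with a mean of 55.8% ± 3.54 in the mutant against 82.8% ± 2.80 in wild-type cells (SD, n = 3 each). The membrane-type enzymes Mmp14 and Mmp15, the gelatinase Mmp2, and Mmp28 held 1 region each, with differences from -25.3 to -21.9 points. The only region of Mmp23, singled out after its values were seen, had 32 CpGs and lost more (13.1%, 20.8% and 24.0% in the mutant, against 60.5%, 60.3% and 55.7% in the wild type).

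The Adamts and Adamtsl genes held 63 regions at 16 genes, with a mean of 48.4% ± 1.98 in the mutant against 76.7% ± 0.349 in wild-type cells (SD, n = 3 each), and 8 of them (12.7%) lost 40 points or more. The procollagen proteases Adamts2 and Adamts14 held 17 and 7 regions. A region of 19 CpGs some 2.95 kb past the start of Adamts2 (chr11:50604393-50605671) had 18.1%, 11.2% and 11.4% in the mutant, against 63.5%, 64.0% and 62.0% in the wild type. Its difference of -49.6 points exceeded the median of the gene, -24.2 points. The aggrecan-cutting enzymes Adamts4 and Adamts5 differed by -44.7 and -44.2 points at their leading regions. At Adamts5 (chr16:85898803-85899532, 23 CpGs) mutant replicates had 22.3%, 22.7% and 21.9%, against 71.7%, 63.5% and 64.1% in the wild type. At Adamts4 (chr1:171258773-171259319) mutant replicates had 5.92%, 8.77% and 8.77%, against 39.2%, 50.4% and 67.9% in the wild type. The spread at Adamts4 thus lay on the wild-type side, with an SD of 14.5 points against 1.64 points in the mutant.

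Adamtsl2, a microfibril-associated member without the protease part, had the largest loss of its class (chr2:27084782-27085118, 14 CpGs), with 22.8%, 17.8% and 30.3% in the mutant against 81.5%, 78.8% and 83.9% in the wild type. Adamts16 and Adamtsl5 lost methylation at or just upstream of their starts. At Adamts16 (chr13:70841966-70843139), upstream of the start, mutant replicates had 25%, 17.7% and 13.4%, against 61.8%, 56.7% and 59.9% in the wild type. At Adamtsl5 a region over the RefSeq start (chr10:80348769-80349242) had 8.42%, 10.9% and 14.8% in the mutant, against 35.5%, 39.4% and 31.9% in the wild type. The region next to it upstream (chr10:80349280-80349831) had 30.6%, 32.7% and 35.6% in the mutant, against 66.8%, 71.8% and 72.0% in the wild type. Adamts13, which cuts von Willebrand factor, held 4 regions with a mean of 48.3% ± 3.51 in the mutant against 73.5% ± 0.0897 in wild-type cells (SD, n = 3 each). In the other genes of the class (Adamts7, Adamts9, Adamts15, Adamts17, Adamts20, Adamtsl1, Adamtsl3 and Adamtsl4) the mean over the regions of a gene differed by -33.8 to -21.1 points.

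**Figure D2:**
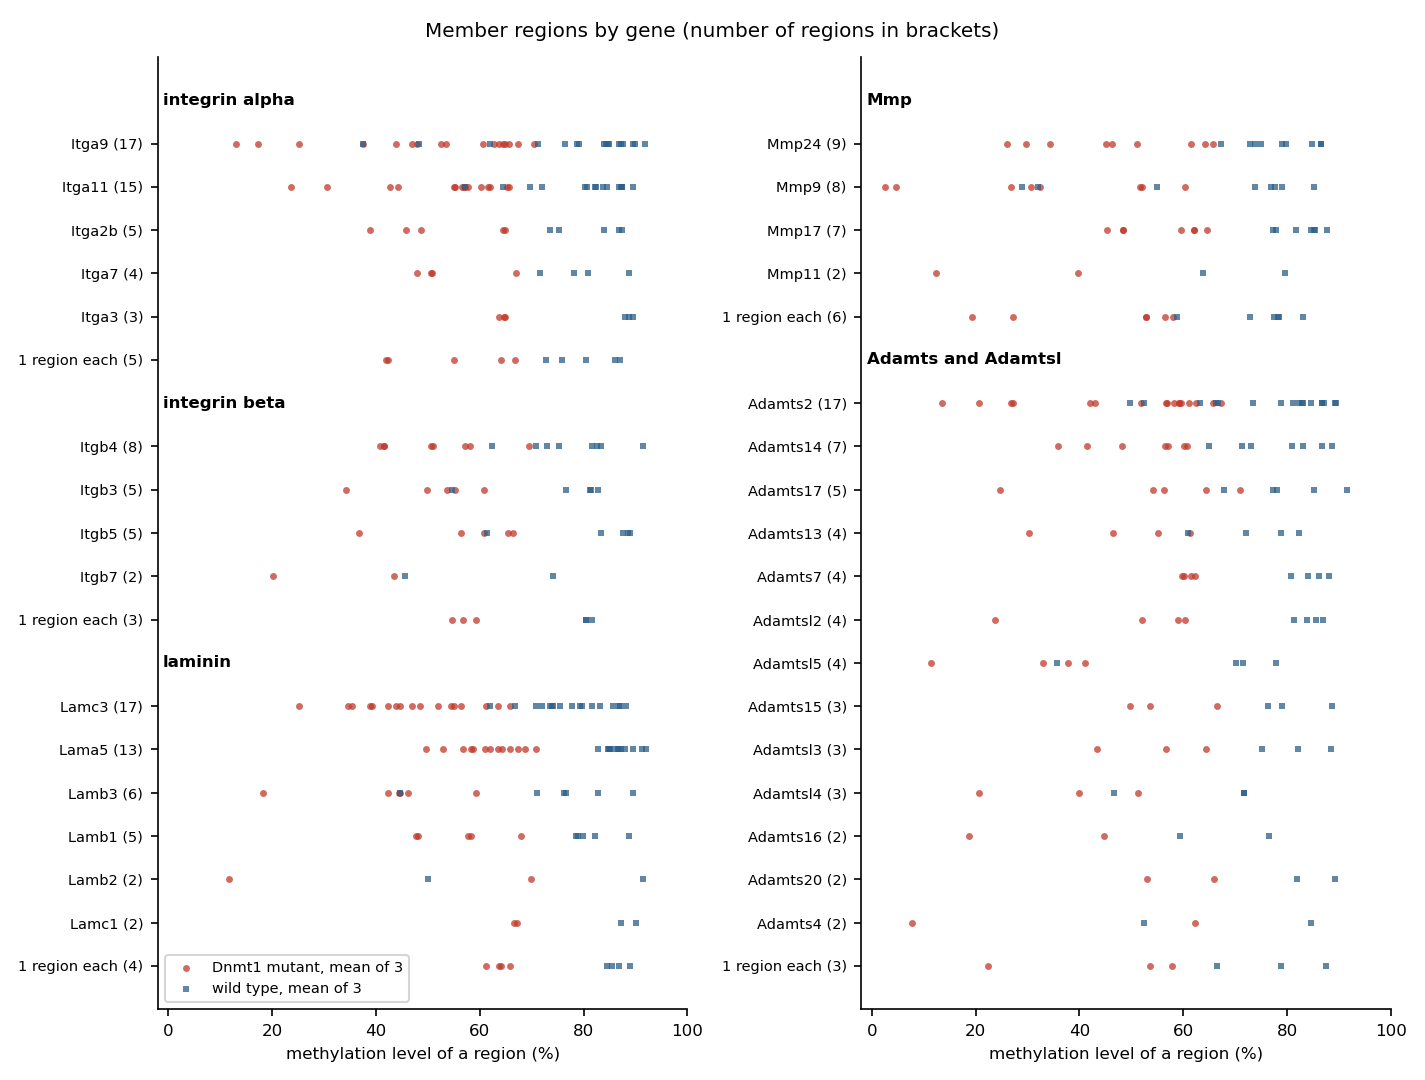
Methylation level in percent (horizontal axis) of every member region, by class and gene, with the genes that hold 1 region sharing a row, as the mean of 3 replicates in the Dnmt1 mutant (circles) and the wild type (squares), with the number of regions in brackets. Most wild-type means lie above 60%, and 12 mutant means (5.56%) lie under 20%, against 7.19% of all listed regions. The lowest are in Mmp9, Adamts4, Adamtsl5, Lamb2 and Mmp11.

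**Figure D3:**
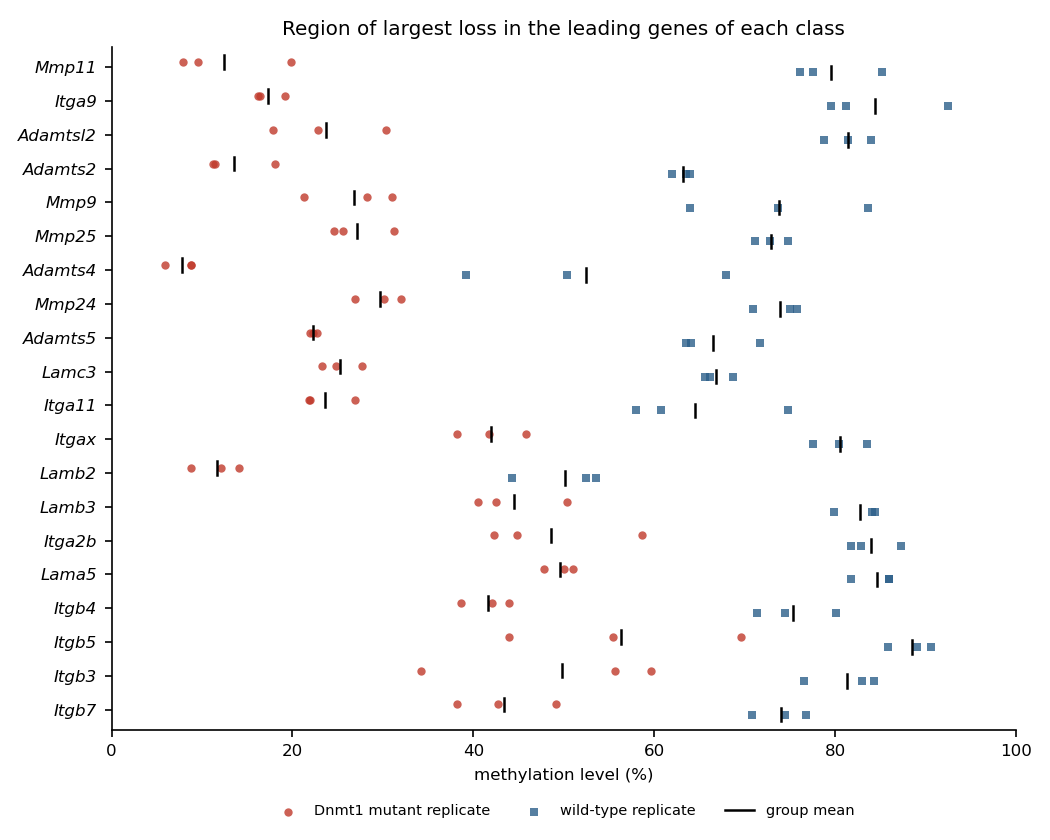
Methylation level in percent (horizontal axis) of the region with the largest loss in each of the 4 leading genes of every class, with a point for each replicate (Dnmt1 mutant circles, drawn above; wild type squares) and a line at the group mean. The genotypes do not overlap at any of the 20 regions, which were chosen for their loss. The same held at 35422 of all 35439 listed regions and at 94.3% of all candidate regions. Mutant replicates spread most at Itgb3 and Itgb5, and wild-type replicates at Adamts4.

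The regions were uneven across genes and lay mostly inside them. There were 197 inside the gene of the authors' model, 15 upstream and 4 downstream, on 18 chromosomes, and 21 genes held 1 region only. The 4 genes with the most (Adamts2, Itga9, Lamc3 and Itga11) held 66 regions (30.6%), and 16 genes with at least 5 held 149. Regions of a gene share their source and are no replicates of each other. Weighting each gene equally left the mean difference at -28.0 points. In the list 12 regions also counted toward a gene outside these families. The median region was 798.5 bases long with 13 CpGs, and the one with the most, 39 CpGs, lay in Lama5. By the RefSeq spans, 2 of the 216, listed for Itga6 and Lamb3, lie more than 5 kb from the gene, so the position depends on the gene model. The only Itga6 member (chr2:71751153-71751691) lies before the RefSeq start at 71786886. The Lamb3 one (chr1:193272492-193272672) lies before the start at 193294353. Both count as inside in the authors' model. Exons and introns could not be told apart with the annotation used here.

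Members nearer to a gene start had lower levels. The 39 regions centred within 5 kb of the start of the RefSeq span averaged 41.8% ± 2.75 in the mutant against 73.0% ± 0.554 in wild-type cells, a difference of -31.2 points (SD, n = 3 each). The 177 farther ones averaged 52.0% ± 2.31 in the mutant against 79.2% ± 0.109 in wild-type cells, a difference of -27.2 points (SD, n = 3 each). Other listed regions showed the same order, with 43.8% in the mutant against 73.1% in wild-type cells for 5338 regions near a protein-coding start and 49.9% in the mutant against 77.9% in wild-type cells for 17415 farther ones. Across the 216 regions the mutant level followed the wild-type level (Pearson r = 0.865), while the difference was only weakly related to the wild-type level (r = 0.189) and to CpGs per 100 bases (r = -0.185). These are descriptions over regions that share the same 6 columns. All were listed for a loss of at least 20 points, which bounds the mutant level and shapes these correlations. The difference also contains the wild-type level itself.

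Promoter windows, of 250 bases before to 50 bases after a start, were given for 59 of 89 family genes, 65 windows in all. A candidate region overlapped 8 of them and a listed region 4, at Itgb7, Lamb3 and Itga3. At Lamb3 the region over 2 neighbouring starts (chr1:193301689-193302371) had 39.1%, 40.1% and 54.6% in the mutant, against 72.9%, 74.3% and 81.3% in the wild type. At Itga3 the region (chr11:95068166-95070452, 32 CpGs) had 60.9%, 61.3% and 72.4% in the mutant, against 86.9%, 88.0% and 89.0% in the wild type. Mutant replicate 3 was the highest at both. Over the Mmp11 start, unlisted, levels were 45.4%, 38.2% and 43.3% in the mutant, against 62.4%, 56.3% and 55.7% in the wild type, a difference of -15.8 points. The next candidate region inside Mmp11 (chr10:75932174-75932363) had 0.852% ± 0.339 in the mutant against 1.41% ± 1.34 in wild-type cells (SD, n = 3 each). Over the Itga11 start levels were 0.556%, 1.78% and 2.11% in the mutant, against 1.11%, 1.78% and 0.778% in the wild type. The Itga11 start was thus nearly free of methylation in both genotypes, while 15 regions elsewhere at the gene were listed. At Lamb1 the start had 1.93% ± 1.52 in the mutant against 3.89% ± 2.42 in wild-type cells (SD, n = 3 each).

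Along single genes, levels changed sharply over short distances. At Lamc3 the candidate region ending 48 bases before the start had 2.04% ± 1.14 in the mutant against 1.89% ± 1.89 in wild-type cells. The region 178 to 322 bases past the start had 1.25% ± 0.213 in the mutant against 16.6% ± 1.72 in wild-type cells, and the member that follows, given above, had 25.3% ± 2.25 in the mutant against 66.8% ± 1.64 in wild-type cells (SD, n = 3 each). Over these regions the loss in points was larger where the wild-type level was higher, but a loss cannot exceed the wild-type level. Over all 216 members the relation was weak and went the other way (r = 0.189 between wild-type level and signed difference). These relations are not alike, since members had to lose at least 20 points and the Lamc3 regions include unlisted ones. Over all candidate regions at the family genes the median difference was -2.85 points where the wild type was under 20%. It was -17.5 points where the wild type was 20% or more. Lamc3 had 26 candidate regions within 5 kb of its RefSeq span, 21 of them listed, of which the authors' list assigned 4 to other genes. Limma, fitted across all candidate regions with an adjusted p threshold of 0.05, called 93.5% of them lower and 0.0485% higher in the mutant. At Mmp9, 8 of 15 candidate regions were listed, 11 were called lower and 4 were not called. Of the 4, a region upstream (chr2:164938767-164939300) had 0.667% ± 0.333 in the mutant against 0.956% ± 0.870 in wild-type cells, and one inside the gene (chr2:164953347-164953521) had 0.333% ± 0.367 in the mutant against 1.15% ± 0.584 in wild-type cells (SD, n = 3 each). At Itga9 all 46 candidate regions were called lower and 17 were listed.

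**Figure D4:**
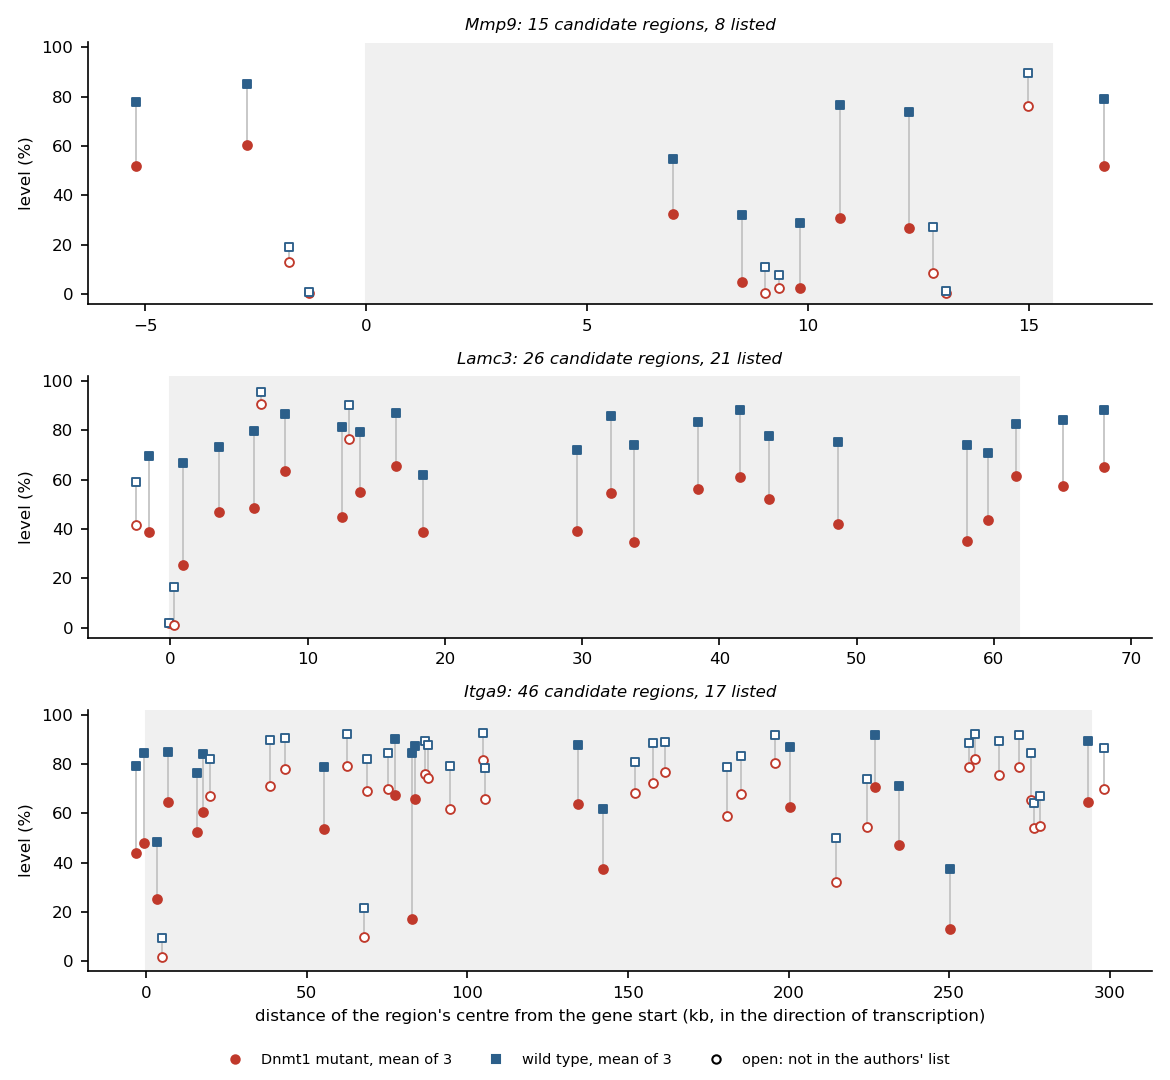
Methylation level in percent (vertical axes) of every candidate region at Mmp9, Lamc3 and Itga9 against the distance of its centre from the gene start in kilobases (horizontal axes), with the RefSeq span shaded, Dnmt1 mutant circles and wild-type squares joined by a line, each the mean of 3 replicates. Filled symbols mark the 8, 21 and 17 listed regions. Regions near 0% in the wild type stay there in the mutant, and the single deep loss of Itga9 stands 82.8 kb from its start among smaller ones.

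Mutant replicate 1 was the lowest of the 3 at 124 of the 216 regions, replicate 2 at 68 and replicate 3 at 24. Over all listed regions the counts were 19996, 10273 and 5170. The SD among mutant replicates exceeded that among wild-type replicates at 160 members, with medians of 4.27 points in the mutant against 2.69 points in wild-type cells. It did so at 24820 of all 35439 listed regions too, with medians of 4.24 points in the mutant against 2.68 points in wild-type cells. Members with the highest wild-type levels were a region of Lama5 (chr2:180190712-180191438) with 70.9% ± 2.63 in the mutant against 92.0% ± 2.89 in wild-type cells, a region of Itga9 (chr9:118833370-118834023) with 70.5% ± 4.43 in the mutant against 91.9% ± 4.28 in wild-type cells, and a region of Adamts17 (chr7:66890891-66891399) with 71.0% ± 6.24 in the mutant against 91.5% ± 2.97 in wild-type cells (SD, n = 3 each). The mutant kept most of the methylation at these, in contrast to the Mmp9 regions. In the authors' deposited table the metilene q-value was under 0.05 for 56 members (25.9%), near the 23.3% of all listed regions. It was under 0.05 for 0 of the 5 members within 250 bases of a RefSeq start, those of Adamts16 and Adamtsl5 included. Among the leading losses of each class, those of Itga2b, Itgax, Itgb4, Itgb5, Itgb7, Lamb3 and Mmp24 were not under 0.05 either.

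The limits of the rule cut through regions of like levels. Just inside the distance limit were a region of Mmp9 at a deposited distance of -4906 bases, with 52.1% ± 3.44 in the mutant against 77.7% ± 3.78 in wild-type cells, and one of Itga11 at -3690 bases, with 57.2% ± 9.76 in the mutant against 80.2% ± 5.90 in wild-type cells (SD, n = 3 each). Just outside were a region at -5879 bases of Itga3 (11.4% in the mutant, 42.1% in the wild type) and one at -6389 bases of Lama1 (51.8% in the mutant, 76.9% in the wild type), among 17 family rows beyond the limit. The smallest authors' differences among members were at the Adamts17 region above, where the replicate means differed by -20.5 points, and at the Lama5 region with 39 CpGs (chr2:180206063-180208003, -20.4 points). Just short of 20 points and unlisted were a region of Adamts13 (69.6% in the mutant, 89.6% in wild-type cells) and one of Lama3 (59.3% in the mutant, 79.2% in wild-type cells). A difference of 20 points between replicate means does not by itself separate listed from unlisted regions, since 6 unlisted regions had one of that size or more, up to -20.6 points.

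The same genes were then followed beyond the list, taking every candidate region within 5 kb of the RefSeq span of any of 89 family genes. There were 652 such regions at 66 genes, of which 227 (34.8%) were listed, against 33.1% of all candidate regions. Limma called 611 lower (93.7%) and 0 higher, close to 93.5% lower over all candidate regions, and 41 were not called. Candidate regions were themselves chosen for a difference in these samples. All 66 genes had at least 1 region called lower, which says little where 93.5% of all candidate regions were. The share among other genes was not computed. By class, 139 of 149 regions were called lower at integrin alpha genes, 77 of 80 at integrin beta genes, 134 of 145 at laminin genes, 89 of 98 at Mmp genes and 172 of 180 at Adamts and Adamtsl genes. The 425 unlisted regions averaged 63.6% ± 2.30 in the mutant against 76.9% ± 0.423 in wild-type cells (SD, n = 3 each), with a median difference of -14.2 points, and 384 of them were called lower.

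Uncalled regions were mostly those with little methylation to begin with. Where the wild type was under 20%, limma called 15 of 43 regions lower (34.9%), against 32.7% of all such candidate regions, and where it was 20% or more it called 596 of 609 (97.9%), against 97.2%. Itga5, a fibronectin receptor chain, had 9 candidate regions and none listed. Of these, 5 were called lower, with differences up to -16.3 points, and the other 4 had at most 4.11% in the wild type and were not called. Itgam, the CD11b chain of myeloid cells, had 4 regions of which 2 were called lower, and Itgav and Itga10 had 1 each, called lower with differences of -8.67 and -7.15 points. These and 10 more of the 66 genes had candidate regions but none listed within 5 kb of the RefSeq span. The remaining 23 genes had no candidate region, among them Itgb1, the beta chain shared by most matrix-binding integrins, Itga4, Itga2, Itga8, Itgb8, Lama2, Adamts1, Mmp16 and all 10 Mmp genes of the cluster on chromosome 9 (from Mmp13 to Mmp7, 7272514 to 7699585). Genes without a candidate region have no level in the tables used here, which does not show that they were the same in both genotypes.

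**Figure D5:**
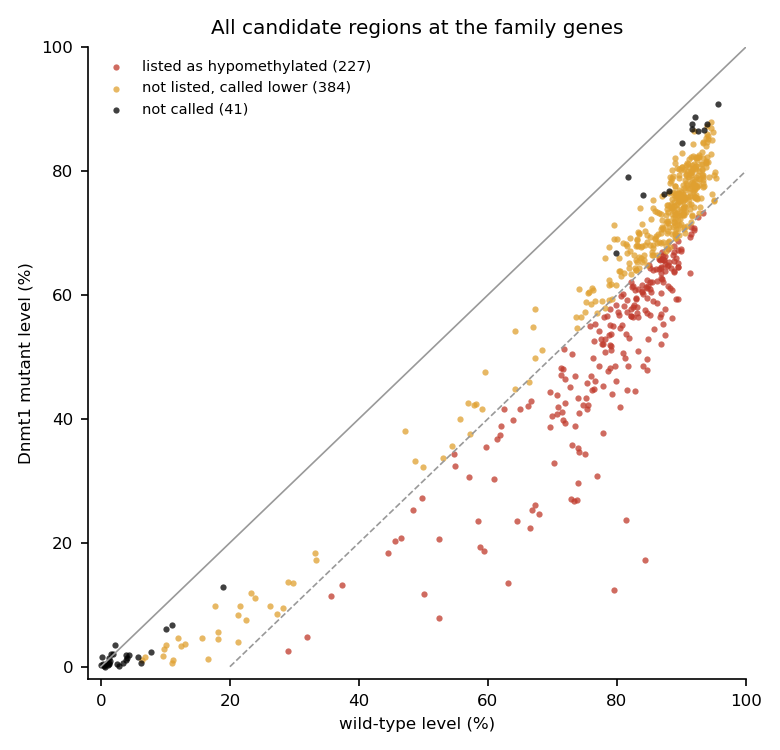
Methylation level in percent of the 652 candidate regions at the family genes, as the mean of 3 replicates, with the wild type on the horizontal and the Dnmt1 mutant on the vertical axis. The solid line marks equal levels and the dashed line a difference of 20 points. The 227 listed regions lie below the dashed line or near it, 384 unlisted regions called lower lie mostly between the lines, and the 41 uncalled regions gather near 0% and near 90%.

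Genes that work with these families showed calls at a rate near that of all candidate regions. Of 49 companion genes chosen for known function, 42 had a candidate region. There were 470 regions, 138 of them listed (29.4%), against 33.1% of all candidate regions. The choice was made with earlier results of these data known, and Vtn, described below, is named in those results. Limma called 436 lower (92.8%) and 0 higher, beside 93.5% lower and 0.0485% higher over all candidate regions, and 34 were not called. Candidate regions were chosen for a difference in these samples, so the rate says little about these genes. Among adaptors and kinases on the inner side of integrins, 243 of 258 regions were called lower, among integrin ligands and basement membrane proteins 115 of 125, and among protease inhibitors and ADAM proteases 78 of 87. Each of the 42 genes had a region called lower, which says little where 93.5% of all candidate regions were. Fermt1, Fermt2 and Fermt3 encode the kindlins, which switch integrins on. The largest loss at Fermt3, the kindlin of blood cells, had 21.1%, 21.9% and 21.8% in the mutant, against 66.9%, 57.6% and 54.5% in the wild type (chr19:6994561-6995885), and the differences at Fermt1 and Fermt2 were -49.9 and -25.5 points. Among ligands, Vtn, which encodes vitronectin, had the largest loss of the companion genes (chr11:78501645-78501904), with 8.82%, 7.12% and 7.76% in the mutant against 80.3%, 79.0% and 73.9% in the wild type. The adaptor gene Lims2 followed with a difference of -62.4 points. The matrix protein gene Thbs1 had -47.1 points, and Fn1, which encodes fibronectin, had 9 of 13 regions called lower with -19.2 points at most and none listed. Adam8, a membrane protease of myeloid cells, had -43.4 points, and the Mmp inhibitor genes Timp2 and Timp3 had -31.7 and -18.6 points at their largest losses.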

How the data were processed

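DNA of 12 samples was sequenced after bisulfite or enzymatic conversion, per the labels' protocols, and mapped to mm10, per the submitters' processing notes, with an aligner and caller not given in the sources used here. For 107115 candidate regions the authors deposited the methylation level of 6 columns as a fraction, turned here into percent. No source states whether a column merges the libraries of both kits, so the kits cannot be compared. Their deposited list of 35439 hypomethylated regions gives a fraction per genotype, a difference of means (a score), the CpG number, the q-value of metilene, a further adjusted p-value of a test that is not named, and the gene with its distance. Listed regions had at least 10 CpGs and an absolute difference of at least 20 points. That distance is to the gene, 0 meaning overlap, so starts were taken from RefSeq instead.

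Each candidate region was fitted on percent with limma 3.58.1 in R 4.3.3, with Benjamini-Hochberg adjustment over all regions and a threshold of 0.05. The fit was tested on simulated data with normal noise and a set change at most of the regions. The simulated regions were not chosen for a difference, unlike the candidate regions. That test therefore cannot give the error rate of the calls. The 3 columns of a genotype count as replicates, and their number limits the precision. No coverage accompanies the levels, so no coverage minimum or counting interval could be used. Differences are mutant minus wild type, and "points" are percentage points. Spans and sequences came from RefSeq on GRCm38.p6, which has the coordinates of mm10. Family genes were the 89 RefSeq genes matching the symbols, taken with 5 kb on each side, and all 49 companion genes were found there.

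Named regions were, per class, the largest loss in each of 4 genes and the gene with most regions, and over all classes those at a gene start, the 3 highest and 3 lowest in the wild type, the 2 widest in the mutant, and those just inside and outside each limit. Other genes are given by their mean or only region, except 1 gene that is not reported here. The members, lists and rules were chosen with earlier results of these data known. Alternatives were a replicate block, a logit scale (fractions kept between 0.01 and 0.99), a variance trend with robust prior, a 20-point minimum, the gene span alone, each replicate left out, the authors' means, other weights and other limits. Python 3.11.15, numpy 2.4.6, pandas 2.3.3 and matplotlib 3.10.9 were used.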

Additional observations from a re-analysis of the deposited data

How the results depend on the processing

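Counts of regions called lower changed by less than 1.5 times under every alternative run except a required difference of at least 20 points, which left 36881 of 100125 regions lower over all candidates, 233 of 611 at the integrin, laminin, Mmp and Adamts genes and 150 of 436 at the companion genes, since it removes the smaller losses by construction. Leaving out each replicate in turn gave 95623 to 100046 regions lower over all candidates, 593 to 612 at the family genes and 416 to 435 at the companion genes, and a mean difference over the members from -29.1 to -26.8 points against -27.9. Keeping only regions with a metilene q-value under 0.05 left 56 of 216 members with a mean difference of -32.8 points; the cause was not tested. Among regions higher in the mutant, 52 over all candidates became 78 with a variance trend and robust prior, 70 with the replicate block, 62 on the logit scale, 4 with 20 points required, and 30 (without wild-type replicate 1) to 63 (without mutant replicate 1) with a replicate left out, the companion genes had 1 on the logit scale and 1 without wild-type replicate 3 against 0, and the family genes had 0 under every alternative. With the replicate number as a block, 99903 regions were lower over all candidates, 614 at the family genes and 437 at the companion genes. Whether the numbers pair the samples could not be settled, since all correlations of deviations between mutant and wild-type replicates were small. Same-numbered replicates correlated at 0.037, 0.0049 and 0.050, and the other pairs at -0.051 to 0.012. Each mutant replicate correlated best with the wild-type replicate of its number. Wild-type replicate 2, however, correlated better with mutant replicate 1 (0.012) than with mutant replicate 2. At the 34 named regions none of 238 alternative values changed sign or moved by more than 1 SD between replicates. Most of this was fixed in advance and is no sign of stability. The genotypes do not overlap at these regions and the list requires 20 points, so no sign could change. Leaving out 1 of 3 replicates cannot move the mean of its group by 1 SD of that group. The authors' means shifted a difference by at most 2.16 points. Without read counts, how far depth limits a level could not be measured.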
